A study of Mus musculus with 12 samples.

Results

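The enzymes that make serine and pass its carbon onto folate were followed here, gene by gene, in mouse lung tumors. The 10 members, Phgdh, Psat1, Psph, Shmt1, Shmt2, Mthfd2, Mthfd1l, Mthfd1, Aldh1l1 and Aldh1l2, were chosen by name from the 39017 genes of the count table. Results of these data were already known when they were picked, so their levels and fits are descriptive. They lie on 7 chromosomes, Mthfd1 (ENSMUSG00000021048) at chr12:76255298-76319803 on the plus strand (GENCODE M21, mm10). All 10 of 10 passed the filter on low counts that left 16527 genes.

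Cells make serine from the glycolytic intermediate 3-phosphoglycerate in 3 steps, and serine is then split to glycine with transfer of a carbon unit to tetrahydrofolate. The folate enzymes run in parallel in mitochondria and cytosol, linked by serine, glycine and formate, and the carbon they carry is used for purines, thymidylate and methionine. The serine branch is known to respond to the transcription factor Atf4 in stressed and growing cells.

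The study collected 12 tumors in 4 groups of 3, all carrying the K-rasLSL-G12D/WT and p53Fl/Fl alleles and the CCSP-rtTA transgene, on a C57BL6/J background. Every mouse was given 6000 viral units of the lentivirus Lenti.TRE-PPARaD13_PGK-Cre by the airway. It carries Cre, which starts the tumor, and PPARαΔ13, a dominant-negative form of the nuclear receptor PPARα that doxycycline switches on through rtTA. KP tumors were the controls for Glut1 (gene Slc2a1, the main glucose transporter) and KPG1 tumors came from Glut1Fl/Fl mice, both on a regular diet. The paper states that its control mice had 2 wild-type copies of Slc2a1 or were heterozygous for the floxed allele. KP-PPARαΔ13 and KPG1-PPARαΔ13 tumors came from the same genotypes given doxycycline pellets at 625 mg per kg for 15 days. The animals were killed 26 weeks after tumor initiation, and RNA came from macrodissected tumor cells depleted of CD45-positive cells. The CCSP promoter is that of club cells, so rtTA is expected in cells that use this promoter. Every PPARαΔ13 comparison therefore compares diets as well as the transgene, and the 2 cannot be told apart.

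The 12 tumors came from 9 mice, as read from the mouse numbers. KP tumors 1 and 2, KPG1 tumors 1 and 2, and KPG1-PPARαΔ13 tumors 1 and 3 shared a mouse. On the regular diet the 3 KP tumors were female and the 3 KPG1 tumors male, so there sex and Glut1 genotype cannot be told apart. KP-PPARαΔ13 held 1 female and 2 male tumors, and KPG1-PPARαΔ13 held 2 female and 1 male. Libraries held 25263794 to 32654223 counts. The checks of the labels were mixed. Ppara, whose reads include the transgene only as far as it shares the gene's sequence, was 9.54 to 15.7 CPM (counts scaled to library size, with TMM factors) in KP and 64.6 and 246.1 CPM in KP-PPARαΔ13 tumors 2 and 3. In the library labelled KP-PPARαΔ13 replicate 1 it was 2.71 CPM, the lowest of all tumors. It was 7.24 to 15.3 CPM in KPG1 and 8.90, 19.2 and 17.7 CPM in KPG1-PPARαΔ13. Slc2a1 was 35.3 to 57.7 CPM in KP and 30.2 to 64.0 CPM in KPG1. It was 152.5, 115.1 and 108.1 CPM in KP-PPARαΔ13 and 23.7, 53.2 and 54.5 CPM in KPG1-PPARαΔ13, so the genotypes overlapped on the regular diet and not on doxycycline. The whole gene was counted, so that a deletion of part of it need not show. Type 2 cell markers were high (Sftpc 5540.4 to 29951.6 CPM), and Cd3e, which marks T cells, was under 1 CPM. Other leukocyte markers were present in every tumor, with Csf1r at 2.63 to 18.6 CPM and Cd68 at up to 23.7 CPM. So were endothelial markers, with Vwf at 54.2 to 248.3 CPM and Pecam1 at 25.8 to 157.6 CPM. Ptprc, the gene for CD45, was 1.88 to 9.85 CPM in 11 tumors and 31.5 CPM in KP tumor 1. The club cell marker Scgb1a1 ran from 5.55 to 159.2 CPM.

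For 4 of the genes, the 250 bases upstream of the RefSeq transcription start (GRCm38.p6) are shown, Mthfd1 because it was lower under PPARαΔ13 and Phgdh, Mthfd2 and Shmt2 because they were higher under PPARαΔ13 in KPG1. Capitals mark a motif found by script. The strand is that of the gene, and the sequences read 5′ to 3′.
Mthfd1, chr12:76254982-76255231, plus strand: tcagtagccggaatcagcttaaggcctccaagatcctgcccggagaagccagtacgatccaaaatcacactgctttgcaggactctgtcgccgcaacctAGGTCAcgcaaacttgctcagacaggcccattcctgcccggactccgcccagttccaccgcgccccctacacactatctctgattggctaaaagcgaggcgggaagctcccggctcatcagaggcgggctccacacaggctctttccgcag
Phgdh, chr3:98339970-98340219, minus strand: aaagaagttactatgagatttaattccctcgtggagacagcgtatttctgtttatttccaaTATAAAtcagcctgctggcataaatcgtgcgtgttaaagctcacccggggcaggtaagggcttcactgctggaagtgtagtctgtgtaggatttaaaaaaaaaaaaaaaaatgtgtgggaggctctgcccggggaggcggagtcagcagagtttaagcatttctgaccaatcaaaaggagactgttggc
Mthfd2, chr6:83317605-83317854, minus strand: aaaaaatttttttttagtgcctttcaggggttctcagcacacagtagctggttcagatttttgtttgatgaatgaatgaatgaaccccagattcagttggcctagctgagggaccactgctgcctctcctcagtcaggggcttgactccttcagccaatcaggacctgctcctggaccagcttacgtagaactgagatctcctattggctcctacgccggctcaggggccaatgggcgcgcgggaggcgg
Shmt2, chr10:127522445-127522694, minus strand: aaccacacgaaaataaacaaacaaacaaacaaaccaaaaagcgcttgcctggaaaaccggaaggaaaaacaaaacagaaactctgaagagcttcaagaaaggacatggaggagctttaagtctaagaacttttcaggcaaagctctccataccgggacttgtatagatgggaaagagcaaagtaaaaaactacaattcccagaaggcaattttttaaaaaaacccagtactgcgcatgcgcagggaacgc

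Motifs were searched on both strands in such windows, AGGTCA (the half-site of nuclear receptors, present in 13.8% of 27025 promoters of the same length), TGATGNAAN (the element bound by C/EBP and ATF factors, 3.51%), CACGTG (the E-box, 6.05%) and TATAAA (the TATA box, 13%). AGGTCA was added after the other motifs had been searched. Positions count from the start, the base before it being -1. Mthfd1 had AGGTCA at -151 to -146, Phgdh had TATAAA at -189 to -184, and Aldh1l1 had AGGTCA on the opposite strand at -178 to -173. The other letters were not found in the windows of the 9 members with an entry (all but Aldh1l2), both start sites of Psat1 included. In GENCODE M21, the annotation used for gene lengths, Phgdh, Psph, Shmt1, Mthfd2, Aldh1l1 and Psat1 reach further 5′ than the RefSeq starts used here, the last 3 by the most.

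By TPM (the transcript share, which divides by gene length and so lets genes be compared), Mthfd1 was the highest member, at 165.9 ± 47.6 TPM (SD, n = 12). Shmt1 followed at 104.2, then Psat1 at 91.5, Phgdh at 77.1, Shmt2 at 50.5, Mthfd2 at 37.9, Mthfd1l at 27.8, Aldh1l1 at 18.6, Psph at 8.86 and Aldh1l2 at 8.0 TPM. Each gene was above the next in 11, 6, 7, 11, 10, 8, 8, 8 and 7 of the 12 tumors in turn. Only Mthfd1 over Shmt1, Phgdh over Shmt2 and Shmt2 over Mthfd2 held in 10 or more. The order among the other neighbours was within the spread of the tumors.

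**Figure D1:**
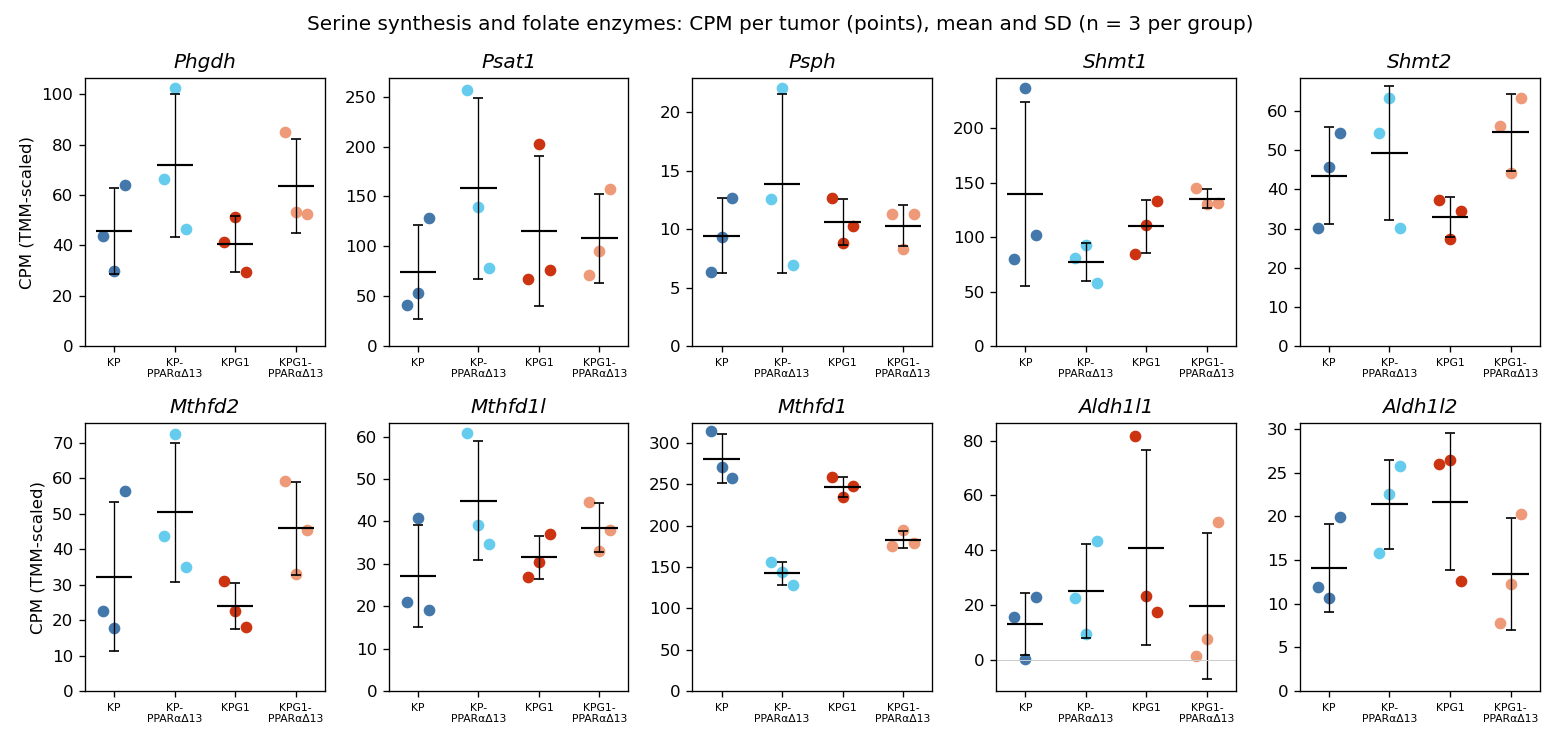
CPM of the 10 members in each tumor, by group; points are tumors, lines the group mean and bars the SD (n = 3). For Mthfd1 the 6 doxycycline tumors (128.0 to 194.2 CPM) lie below the 6 regular-diet tumors (234.0 to 314.1 CPM), and for Aldh1l1 the tumors run from 0.606 to 81.8 CPM.

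Mthfd1 encodes the cytosolic enzyme that carries out the formate, cyclohydrolase and dehydrogenase reactions of folate in one protein. It was 314.1, 270.3 and 257.3 CPM in the KP tumors. In KP-PPARαΔ13 it was 155.5, 144.0 and 128.0 CPM, so that every KP tumor was above every KP-PPARαΔ13 tumor. In KPG1 it was 258.1, 234.0 and 247.7 CPM and in KPG1-PPARαΔ13 175.7, 194.2 and 179.4 CPM, again without overlap. The means were 280.6 ± 29.8, 142.5 ± 13.8, 246.6 ± 12.1 and 183.1 ± 9.78 CPM (SD, n = 3 each). The fold change, log2(KP-PPARαΔ13 over KP), was -0.98 (SE 0.155), with an unadjusted p of 4.77e-05 and an adjusted p of 0.197 by edgeR's quasi-likelihood test with Benjamini-Hochberg adjustment. In KPG1 the log2 fold change was -0.43 (SE 0.153, adjusted p 0.420) and over both genotypes -0.70 (SE 0.109, adjusted p 0.1002). Mthfd1 ranked 4 of 16527 genes by p in KP and 6 over both genotypes. Mthfd1 was not called in any of these comparisons. These fold changes were singled out after their values were seen, since they are under the size of 1 that sets which members are printed.

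Counting genes whose groups did not overlap gives the background. Lower in every KP-PPARαΔ13 tumor were 6.7% of the 16527 genes and in every KPG1-PPARαΔ13 tumor 9.41%, against 1 of 10 members, Mthfd1, in each. Over both genotypes, 6 against 6 tumors, 0.224% of genes (37) were lower without overlap, and Mthfd1 was one. These counts are by CPM. By TPM Mthfd1 overlapped in KPG1 and so over both genotypes, with KPG1 tumor 2 at 154.7 and KPG1-PPARαΔ13 tumor 2 at 158.7 TPM. Sex went along with the groups, and within each the order held: regular-diet tumors of females were at 257.3 to 314.1 CPM and doxycycline tumors at 144.0 to 179.4 CPM, while males were at 234.0 to 258.1 and 128.0 to 194.2 CPM. The doxycycline sets hold both genotypes, and the regular-diet sets are KP in females and KPG1 in males. Without the library labelled KP-PPARαΔ13 replicate 1, the log2 fold change in KP was -1.04 and the adjusted p 0.308. Summed marker levels of other cell types also separated some groups. In KP, fibroblast markers (7 of 7 listed genes tested) were at 127.2 to 283.1 CPM and with PPARαΔ13 at 318.2 to 569.2 CPM, and erythroid markers (5 of 5) at 319.1 to 764.7 and 849.9 to 1319.8 CPM. In KPG1, type 2 markers (7 of 7) were at 45715.7 to 73426.7 CPM and with PPARαΔ13 at 25046.6 to 39012.5 CPM, type 1 markers (5 of 5) at 1691.3 to 2366.3 and 634.6 to 1052.4 CPM, and ciliated markers (4 of 4) at 191.4 to 281.2 and 286.6 to 312.5 CPM. Each of these lists overlapped in the other genotype. The sums did not stand for every gene. With PPARαΔ13 in KP, 6 of 7 fibroblast and 4 of 5 erythroid genes had a higher fitted level. In KPG1, 6 of 7 type 2 and 5 of 5 type 1 genes had a lower one. The type 2 gene Nkx2-1 was higher, at 245.1 to 263.4 CPM in KPG1 and 242.8 to 532.8 CPM with PPARαΔ13. Hopx and Cav1 of the type 1 list overlapped. The part of these lists in the result was not tested. Most of the ciliated sum was Tubb4b, at 188.8 to 277.2 CPM in KPG1 and 277.7 to 311.2 CPM with PPARαΔ13. The other ciliated genes were low and overlapped, Foxj1 being at 0.64 to 1.35 and 0.554 to 4.5 CPM. In bulk RNA, fewer cells of a type and less RNA per cell cannot be told apart.

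Mthfd1 was also the most uniform member. The SD of its log2 CPM within groups was 0.116, at percentile 0.315 of all genes tested, while the other 9 members had SDs from 0.397 to 2.06. Only Aldh1l1, at percentile 98.9, was near the other end.

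None of the members passed the test in either genotype. Over KP-PPARαΔ13 against KP, 8 members were higher and 2 lower, with a median log2 fold change of 0.622 against -0.00822 for all genes. Mthfd1 and Shmt1 were the 2 lower. Over KPG1-PPARαΔ13 against KPG1, 5 were higher and 5 lower, with a median of 0.123 against 0.0234. Under edgeR 0.00605% of genes were called in the first and 0.00605% in the second, and 0 of 10 members in each. Unadjusted p was under 0.05 for 3 members in KP and 2 in KPG1, among 1876 and 1777 genes. DESeq2 called 372 genes in KP, and of the members only Mthfd1 (adjusted p 1.67e-07), and 211 in KPG1 with no member.

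**Figure D2:**
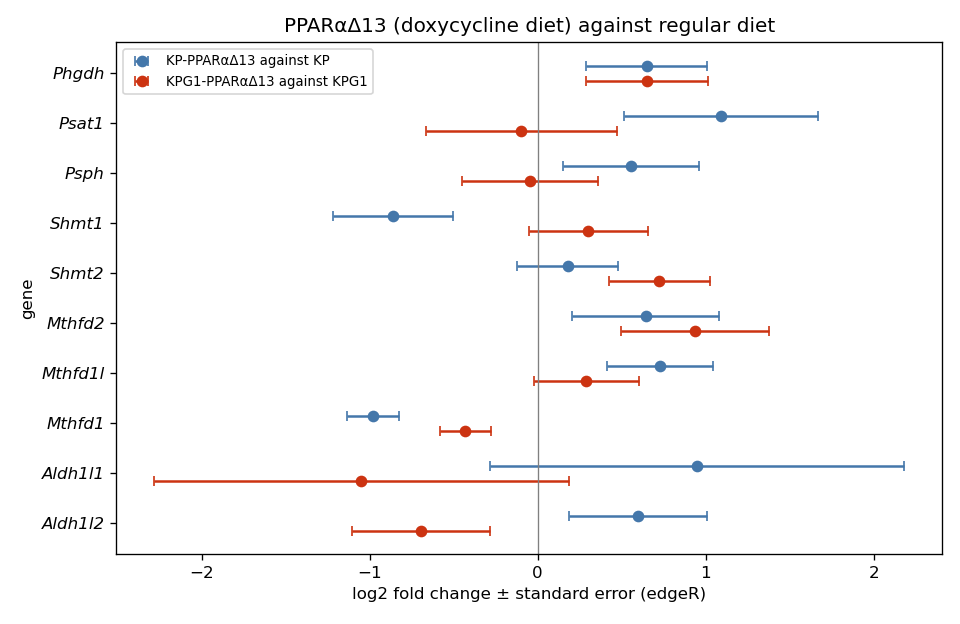
Log2 fold change and its standard error for each member in the 2 PPARαΔ13 comparisons, from one edgeR fit over 12 tumors. Mthfd1 has the narrowest error (SE 0.155 and 0.153), and for Aldh1l1 the fold change is 0.95 in KP and -1.05 in KPG1.

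Phgdh, which oxidises 3-phosphoglycerate in the first and committed step of serine synthesis, was 43.6, 29.9 and 63.9 CPM in KP and 66.3, 102.6 and 46.4 CPM in KP-PPARαΔ13. In KPG1 it was 41.2, 51.3 and 29.3 CPM and in KPG1-PPARαΔ13 85.2, 53.2 and 52.5 CPM. The KPG1 groups did not overlap, the KP groups did. The log2 fold change was 0.65 in both genotypes, and over both 0.65 (SE 0.256), with an unadjusted p of 0.0269 and an adjusted p of 0.431 (edgeR).

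Psat1, the transaminase of the second step, was the most variable of the serine enzymes. It was 41.4, 52.9 and 128.8 CPM in KP and 256.9, 139.7 and 78.2 CPM in KP-PPARαΔ13. In KPG1 it was 67.3, 202.4 and 76.6 CPM and in KPG1-PPARαΔ13 71.1, 95.4 and 157.4 CPM. All groups overlapped, and in KP and KPG1 a single tumor stood well above the others. The log2 fold change in KP was 1.09 (SE 0.577, adjusted p 0.511), the interaction, that is the PPARαΔ13 difference in KPG1 minus that in KP, -1.19 (SE 0.810, adjusted p 0.567), both by edgeR. Leaving out single tumors and the other alternatives gave 0.55 to 1.75 in KP. Psph, the phosphatase that releases serine, was 6.30 to 12.7 CPM in KP, 6.97 to 22.1 CPM in KP-PPARαΔ13, 8.81 to 12.7 CPM in KPG1 and 8.29 to 11.3 CPM in KPG1-PPARαΔ13, and did not separate any groups.

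Shmt2, which splits serine to glycine in mitochondria, was 37.2, 27.3 and 34.5 CPM in KPG1 and 56.2, 44.1 and 63.4 CPM in KPG1-PPARαΔ13, without overlap. In KP it was 30.2, 45.8 and 54.5 CPM and in KP-PPARαΔ13 54.3, 63.3 and 30.2 CPM, overlapping throughout. The log2 fold change was 0.72 in KPG1 (unadjusted p 0.0341, adjusted p 0.439, edgeR) and 0.18 in KP. Shmt1, its cytosolic counterpart, was 80.0, 236.5 and 102.2 CPM in KP and 80.6, 92.5 and 57.8 CPM in KP-PPARαΔ13. It was 84.5, 111.5 and 133.5 CPM in KPG1 and 145.2, 130.0 and 130.9 CPM in KPG1-PPARαΔ13. The interaction was 1.16 (SE 0.504, adjusted p 0.410, edgeR). KP tumor 2 was well above every other tumor, and without it the interaction was 0.55 (adjusted p 0.722, edgeR).

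Mthfd2, the mitochondrial dehydrogenase and cyclohydrolase that is low in most adult tissues and high in many tumors, was 31.1, 22.6 and 18.2 CPM in KPG1 and 59.1, 33.1 and 45.4 CPM in KPG1-PPARαΔ13, without overlap. In KP it was 22.6, 17.7 and 56.4 CPM and in KP-PPARαΔ13 43.8, 72.4 and 34.9 CPM. The log2 fold change was 0.94 in KPG1 and 0.64 in KP, neither called. Mthfd1l, the mitochondrial enzyme that releases formate, was 21, 40.9 and 19.2 CPM in KP and 60.8, 39.2 and 34.6 CPM in KP-PPARαΔ13, and 27.0, 30.5 and 37.0 CPM in KPG1 against 44.5, 33.1 and 38.0 CPM in KPG1-PPARαΔ13. The log2 fold change was 0.73 in KP (unadjusted p 0.0403, adjusted p 0.417, edgeR).

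Phgdh, Shmt2 and Mthfd2 were thus the 3 members higher in every KPG1-PPARαΔ13 tumor than in any KPG1 tumor, 3 of 10 against 11.2% of all genes. In KP-PPARαΔ13 0 of 10 were, against 6.55% of all genes. The 3 KPG1 tumors were male, while KPG1-PPARαΔ13 tumors 1 and 3 were female and from 1 mouse. The male KPG1-PPARαΔ13 tumor 2 had 53.2, 44.1 and 33.1 CPM of Phgdh, Shmt2 and Mthfd2. The highest KPG1 values were 51.3, 37.2 and 31.1 CPM. The part of sex in this separation was not tested.

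**Figure D3:**
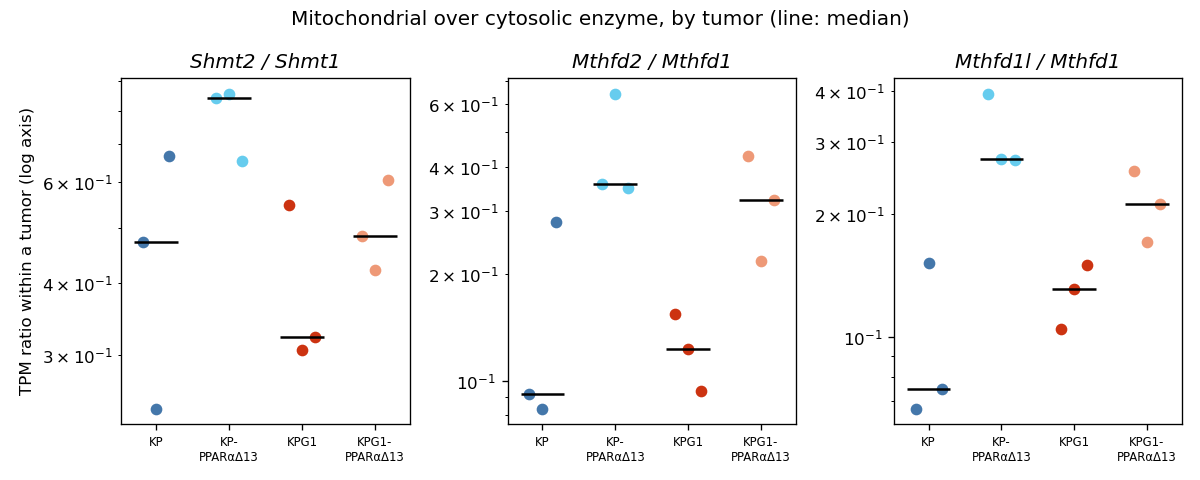
Ratio of a mitochondrial to a cytosolic enzyme by TPM within each tumor, log axis; points are tumors and lines the group median. Mthfd2 over Mthfd1 was 0.0834 to 0.279 in KP and 0.348 to 0.641 in KP-PPARαΔ13, and 0.0935 to 0.154 in KPG1 and 0.217 to 0.429 in KPG1-PPARαΔ13. The TPM of Mthfd1, the denominator, did not overlap in KP but did in KPG1 (154.7 to 201.3 against 139.2 to 158.7 with PPARαΔ13). Shmt2 over Shmt1 overlapped in both genotypes.

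The ratio of mitochondrial to cytosolic enzymes by TPM followed from these values and is a description. Mthfd2 over Mthfd1 was 0.0916, 0.0834 and 0.279 in KP and 0.359, 0.641 and 0.348 in KP-PPARαΔ13. In KPG1 it was 0.154, 0.123 and 0.0935 and in KPG1-PPARαΔ13 0.429, 0.217 and 0.322. Mthfd1l over Mthfd1 did not overlap either, 0.067 to 0.152 in KP against 0.271 to 0.392, and 0.105 to 0.15 in KPG1 against 0.171 to 0.254. Both ratios divide by the TPM of Mthfd1, which did not overlap in KP, at 193.7 to 244.6 against 92.7 to 125.5 with PPARαΔ13. In KPG1 it did overlap, at 154.7 to 201.3 against 139.2 to 158.7 TPM, though its CPM did not. Mthfd1l overlapped in both genotypes by CPM and by TPM, and Mthfd2 did so in KP. How often ratios of other gene pairs separate these groups was not computed. Shmt2 over Shmt1 overlapped in both, at 0.242 to 0.666 in KP, 0.654 to 0.855 in KP-PPARαΔ13, 0.306 to 0.549 in KPG1 and 0.423 to 0.605 in KPG1-PPARαΔ13. Aldh1l2 over Aldh1l1 overlapped in both as well, at 0.455 to 10.5 in KP, 0.358 to 1.41 in KP-PPARαΔ13, 0.191 to 0.677 in KPG1 and 0.242 to 3.33 in KPG1-PPARαΔ13.

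The last pair turns formyl-tetrahydrofolate back to tetrahydrofolate and carbon dioxide. Aldh1l1, the cytosolic form, was 15.8, 0.606 and 22.9 CPM in KP and 22.7, 9.65 and 43.4 CPM in KP-PPARαΔ13. In KPG1 it was 81.8, 23.5 and 17.7 CPM and in KPG1-PPARαΔ13 1.4, 7.68 and 50.3 CPM. It ranged 134.9-fold over the tumors, KP tumor 2 and KPG1-PPARαΔ13 tumor 1 being the lowest, and every group overlapped every other. Its log2 fold changes were -1.05 (SE 1.23) in KPG1 and 1.65 (SE 1.25) for KPG1 against KP on the regular diet, with an interaction of -2.00 (SE 1.74), and adjusted p of 0.780, 0.840 and 0.667 by edgeR. Single tumors moved these values. The first was -0.06 without KPG1 tumor 1 and -3.17 without KPG1-PPARαΔ13 tumor 3, the second 0.66 without KPG1 tumor 1 and 2.32 without KP tumor 3, and the interaction -1.01 without KPG1 tumor 1 and -4.12 without KPG1-PPARαΔ13 tumor 3. Aldh1l2, the mitochondrial form, was 11.9, 10.6 and 19.9 CPM in KP, 15.8, 22.6 and 25.8 in KP-PPARαΔ13, 26.0, 26.4 and 12.6 in KPG1 and 7.74, 12.2 and 20.3 in KPG1-PPARαΔ13. Its interaction was -1.29 (SE 0.580, adjusted p 0.423, edgeR).

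For KPG1 against KP on the regular diet, 5 members were higher and 5 lower. The groups overlapped for all 10 members, where 4.82% of all genes were higher and 5.13% lower without overlap, and 0.0363% of genes were called. On the doxycycline diet 3 were higher and 7 lower, Shmt1 and Mthfd1 being higher without overlap, 2 of 10 against 10.3% of all genes, and 0.0303% were called. Over both diets 4 were higher and 6 lower, and 0.0484% of genes were called. No gene at all was called for the interaction (0%, with 1952 genes at an unadjusted p under 0.05, and 286 called by DESeq2), in which 5 members were higher and 5 lower. For PPARαΔ13 over both genotypes 0.0182% were called, with 6 members higher and 4 lower and a median of 0.354. No member was called by edgeR in any of the 7 comparisons. At an unadjusted p under 0.05 were 0 members for KPG1 against KP on the regular diet, 2 on the doxycycline diet, 0 over both diets, 3 for the interaction and 4 for PPARαΔ13 over both genotypes, against 6.23%, 9.69%, 4.53%, 11.8% and 10.1% of all genes. With sex as a covariate, the members higher in KPG1 were 8 on the regular diet and 9 over both diets, and for the interaction 2 were higher, so these counts of direction moved with the sex term.

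**Figure D4:**
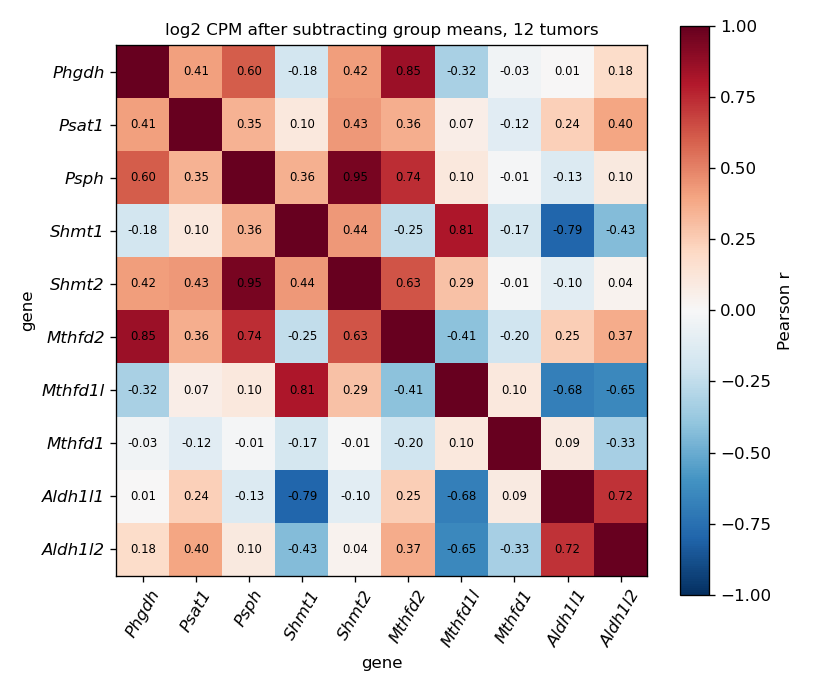
Pearson r between members across 12 tumors after the group means were subtracted from log2 CPM. Psph with Shmt2 is highest (0.95), and Shmt1 with Aldh1l1 most negative (-0.79).

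Within groups, tumors that were high in one member were high in some others. Pearson's r of log2 CPM after subtraction of group means, over 12 tumors, was 0.95 for Psph and Shmt2 (Spearman's 0.916), 0.853 for Phgdh and Mthfd2 (0.867) and 0.811 for Shmt1 and Mthfd1l (0.846). Aldh1l1 and Aldh1l2 had 0.719, and Shmt1 and Aldh1l1 -0.792. Both values of a point come from the same library, and 6 of the tumors share a mouse in pairs. Without KP tumor 2, chosen after its values were seen, the Shmt1 pairs had 0.518 with Mthfd1l and -0.559 with Aldh1l1, while Psph with Shmt2 was 0.953 and Phgdh with Mthfd2 0.806. Mthfd1 had no such partner among the members, all its r lying within -0.33 to 0.10.

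**Figure D5:**
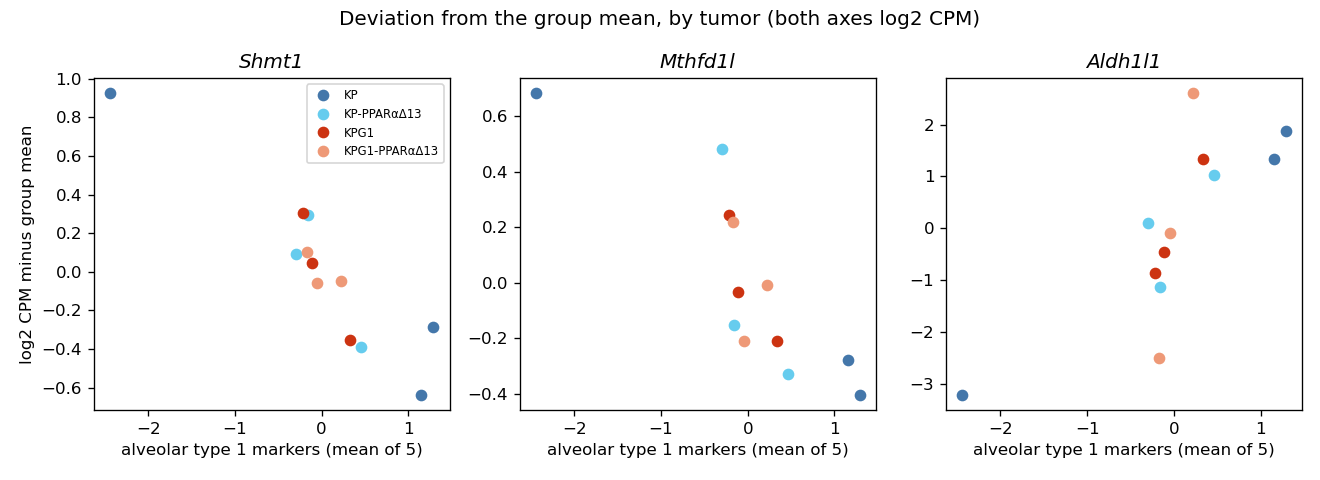
Deviation of log2 CPM from the group mean for Shmt1, Mthfd1l and Aldh1l1 against the mean deviation of 5 alveolar type 1 markers, one point a tumor, by group. Shmt1 runs downward (r -0.918) and Aldh1l1 upward (r 0.787) along the marker axis, with KP tumor 2 at its left end.

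The members were also set beside lists of marker and pathway genes. The values given here are among the largest of all pairs of member and list, and were picked after they were seen. With the mean of 5 alveolar type 1 markers, r was -0.918 for Shmt1, -0.842 for Mthfd1l and 0.787 for Aldh1l1, and without KP tumor 2 -0.785, -0.743 and 0.717. The summed level of these markers was 194.6 CPM in KP tumor 2 and 634.6 to 2812.5 CPM in the others. Type 1 markers were not alone in this. In the same order, r was -0.618, -0.702 and 0.666 with type 2 markers and -0.63, -0.63 and 0.504 with endothelial markers. With hepatocyte markers it was 0.678, 0.74 and -0.418. With leukocyte markers Shmt1 and Mthfd1l had -0.723 and -0.815. The 5 leukocyte genes tested have equal weight in this mean. By summed CPM most of the list was Lyz2, at 160.3 to 4217.8 CPM, which type 2 cells also express. Shmt2 and Psph had 0.773 each with proliferation genes (Spearman's 0.594 and 0.545), and Shmt2 0.757 with purine synthesis genes (0.636). KP-PPARαΔ13 tumor 3 deviated furthest down in proliferation genes, Psph and Shmt2 (-0.92, -0.84 and -0.64). These values without it were not computed.

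Genes most like the 3 members with the widest range of log2 CPM over all tumors, of 14108 genes, were Fgd6, Bsg and Socs2 for Aldh1l1 (r 0.969, 0.964 and 0.964), Cdkn2b, Dpp3 and the pseudogene Pgam1-ps2 for Psat1 (0.978, 0.964 and 0.931) and Ulbp1, Pold1 and Ccdc40 for Shmt1 (0.957, 0.952 and 0.943), after group means were subtracted over 12 tumors.

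The other genes of the pathway, from lists written with earlier results known, held 0 called genes in any list and comparison. Of 14 tested genes of folate uptake and the folate cycle, 11 were lower in KP-PPARαΔ13 (median log2 fold change -0.204) and 10 higher in KPG1-PPARαΔ13 (median 0.494). In KP the 3 lowest p belonged to Mtr, methionine synthase (-0.68, adjusted p 0.394), Fpgs, which adds glutamates to folate (-0.72, adjusted p 0.407), and Slc25a32, which carries folate into mitochondria (-0.39, adjusted p 0.618). In KPG1 the lowest p belonged to Slc19a1, the reduced folate carrier (1.02, adjusted p 0.422), followed by Mtfmt, which formylates the mitochondrial initiator tRNA (0.66, adjusted p 0.4404), all by edgeR.

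Of the 4 glycine cleavage genes 3 were higher in KP-PPARαΔ13 and 4 in KPG1-PPARαΔ13. Gldc, its glycine decarboxylase, had the largest log2 fold change in that list in KP, 3.07 (SE 0.679), with an adjusted p of 0.256, and Amt had -1.65 (adjusted p 0.351). Of 24 Atf4-related genes 19 were higher in KP-PPARαΔ13 (median 0.294) and 12 in KPG1-PPARαΔ13 (median -0.00651), and the cystine carrier Slc7a11 had 1.26 and -1.55, with adjusted p of 0.508 and 0.447 by edgeR. Asns, asparagine synthetase, had 0.86 in KPG1 (adjusted p 0.435). Of 13 purine synthesis genes 6 were higher in KP-PPARαΔ13 and 8 in KPG1-PPARαΔ13, and of 21 proliferation genes 10 and 16. Of 12 genes of serine and glycine transport and use, 5 and 6 were higher, with Slc1a5, a glutamine and serine carrier, at -0.43 and -0.74 (adjusted p 0.457 and 0.420, edgeR). Of 9 methionine cycle and transsulfuration genes 2 and 5 were higher, Cth at -0.96 in KP (adjusted p 0.430) and Mat1a at -1.90 in KPG1 (adjusted p 0.420).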

How the data were processed

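The authors deposited raw read counts per gene for 12 tumors, one table per tumor and a combined table that was equal to all 12; a table of log2 values was not used. Single-end reads from a stranded mRNA kit were trimmed, aligned with HISAT2 and counted with featureCounts 1.4.4, per the submitters' processing notes; the annotation was not given in the sources used here. Counts were fitted with edgeR 4.0.16 (R 4.3.3; TMM, filterByExpr, quasi-likelihood F test over 16527 genes, Benjamini-Hochberg adjustment, threshold 0.05), all 12 tumors and 4 groups in one fit with 8 residual degrees of freedom. p-values treat tumors as independent, though some shared a mouse. CPM were TMM-scaled and TPM used exon lengths of GENCODE M21. Members and lists were chosen with earlier results of these data known. Statistics were printed for members with an absolute log2 fold change of 1 or more, otherwise as counts or values, and for up to 3 genes per pathway list by lowest p; some items are not reported here. Alternatives used DESeq2 1.42.0 and limma 3.58.1. The fit was tested on simulated data.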

Additional observations from a re-analysis of the deposited data

How the results depend on the processing

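DESeq2 called 1 member, Mthfd1, in KP-PPARαΔ13 against KP and 1 over both genotypes, where edgeR called 0; the cause was not tested. In the other comparisons 0 members were called by DESeq2, and in all comparisons 0 by limma voom, with another normalization, with no filter or a minimum mean of 20 TPM, with only the compared groups (run for the 4 comparisons of 2 groups), with sex as a covariate, with tumors of one mouse summed and without each tumor in turn. With the replicate number as a block 0 members were called in each comparison. After subtraction of group means, the 18 pairs of tumors with the same number had r from -0.19 to 0.127. The 36 pairs with other numbers had r from -0.232 to 0.23. Whether tumors with the same number shared a step of processing was not tested. For Mthfd1 the alternatives gave log2 fold changes of -1.04 to -0.89 in KP and -0.50 to -0.39 in KPG1, all negative, with adjusted p from 1.67e-07 to 0.490 and from 0.109 to 0.999. Genes called, with DESeq2 in brackets after the range of the other alternatives, were 0 to 2 (372) for KP-PPARαΔ13 against KP, 0 to 2 (211) for KPG1-PPARαΔ13 against KPG1, 2 to 10 (60) and 2 to 10 (155) for KPG1 against KP on the regular and doxycycline diets, and 0 to 0 (286) for the interaction; over both genotypes and both diets they were 2 to 13 (288) and 3 to 12 (39). TPM in place of CPM gave the same number of members without overlap in the 4 comparisons of 2 groups. For KPG1-PPARαΔ13 against KPG1 the members themselves changed. There Mthfd1 overlapped by TPM, at 154.7 to 201.3 in KPG1 and 139.2 to 158.7 with PPARαΔ13. Shmt1 did not overlap by TPM, at 75.4 to 114.6 in KPG1 and 116.2 to 134.2 with PPARαΔ13. The number of tumors per group, 3, limits all comparisons.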
